A study of Mus musculus with 12 samples.

Results

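The genes described here are 46 antiviral interferon-stimulated genes, taken by symbol from a list that was drawn up with earlier results of these data known. All 46 were found among the 57186 genes of the count table, and all 46 passed the filter on low counts. Messenger RNA was measured in 12 tumours that arose in mice from cells of the 4T1 line, a mouse mammary carcinoma. In 6 tumours (WT) the cells were the parental line. In the other 6 (Tn) Cosmc, whose gene symbol is C1galt1c1, had been silenced in the cells with CRISPR/Cas9. This gene encodes a chaperone needed by the O-glycan elongating enzyme, and cells lacking it carry the short Tn antigen. No drug or other agent is named for either group, and whether the silenced cells were 1 clone, the mouse strain, and the age of the mice are not given in the sources used here. RNA came from whole tumour tissue, so each value sums the injected cells and the cells of the mouse, and fewer cells of a type and less RNA per cell cannot be told apart.

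Interferons are secreted proteins that cells make after sensing foreign or misplaced nucleic acid. Type I interferons bind the receptor chains Ifnar1 and Ifnar2, the kinases Jak1 and Tyk2 are activated, and Stat2 is phosphorylated and joins Irf9 in a complex called ISGF3. ISGF3 binds the interferon-stimulated response element (ISRE) in promoters and switches on a shared set of genes whose products block viral replication at many steps. Interferon gamma, made by T cells and natural killer cells, acts through another receptor, and its response runs through the gamma-activated site (GAS). Several genes are induced by both routes. In tumours these genes are read as a sign of interferon exposure of the tumour cells, the immune cells or both.

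Some members' promoters hold the letters of this response element. In the 250 bases before the start of the canonical transcript (GRCm39, GENCODE M39), the ISRE letters GAAANNGAAA, searched on both strands, occurred in 16 of 46 members (34.8%) and in 620 of 19173 tested genes with such a window (3.23%). The GAS letters TTCNNNGAA, which read the same on both strands, occurred in 4 of 46 members (8.7%) and in 1289 of 19173 genes (6.72%). In the Bst2 window the GAS match shared bases with an ISRE match, and elsewhere the GAS matches were in Eif2ak2, Ifit2 and Oas1a. A match is a description of the letters and not a bound site. Stretches of 60 bases from 7 of the windows are shown because they hold matches of genes whose values follow, written 5′ to 3′ on the strand of the gene, with the ISRE letters in capitals (GAAANNGAAA, or TTTCNNTTTC where the match is on the other strand).
Bst2: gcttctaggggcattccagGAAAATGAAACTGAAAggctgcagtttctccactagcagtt
Isg15: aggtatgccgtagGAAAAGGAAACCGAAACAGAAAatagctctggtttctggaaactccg
Ifit1: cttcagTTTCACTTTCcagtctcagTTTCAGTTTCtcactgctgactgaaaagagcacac
Ifit3: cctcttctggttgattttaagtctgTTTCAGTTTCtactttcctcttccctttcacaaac
Stat2: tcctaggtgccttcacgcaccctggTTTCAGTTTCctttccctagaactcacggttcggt
Usp18: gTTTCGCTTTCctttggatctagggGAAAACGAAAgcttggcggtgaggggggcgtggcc
Rsad2: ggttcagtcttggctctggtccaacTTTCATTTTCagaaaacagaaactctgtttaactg
The Isg15 stretch (chr4:156285307-156285366, minus strand) held 3 overlapping matches, and the Bst2 stretch (chr8:71990206-71990265, minus strand) held 2. Ifit1 (chr19:34618179-34618238, plus strand) and Usp18 (chr6:121222781-121222840, plus strand) held 2 separate matches each. Stat2 (chr10:128106120-128106179, plus strand), Rsad2 (chr12:26506537-26506596, minus strand) and Ifit3 (chr19:34560782-34560841, plus strand) held 1 each, and a further match of Ifit3 ends at the first base of its stretch. Ifit3b has the same 60 letters as Ifit3.

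**Figure D1:**
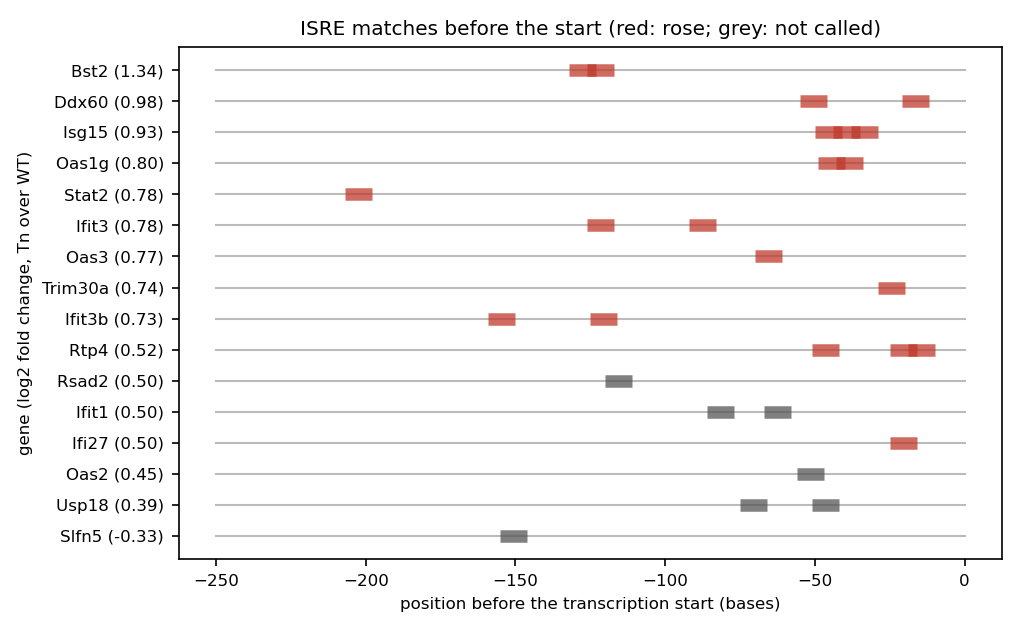
Positions of ISRE matches in the promoter windows of the members that hold one. The horizontal axis is the distance in bases from the start of the canonical transcript, each line is 1 gene with its log2 fold change (Tn over WT), and each mark is 1 match, red for genes that rose and grey for genes not called; the 3 matches of Isg15 lie within the last 50 bases before its start.

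Most members were higher in Tn tumours. Of the 46, 30 rose (65.2%), 1 fell and 15 did not pass the test, while 19.5% of all 19255 tested genes rose and 17.4% fell (edgeR's quasi-likelihood test, Benjamini-Hochberg adjusted over all tested genes, threshold 0.05). Changes are given as the log2 fold change, Tn over WT, with its standard error. The median over the members was 0.64, against 0.01 over all tested genes, and the members ran from -0.40 (Isg20) to 1.34 (Bst2). The log2 fold change was above 0 in 44 of 46 members, the others being Isg20 and Slfn5. The rises were mostly moderate: 5 members (Bst2, Ifi44, Dhx58, Mx1 and Irf7) rose by at least 2-fold, a size of rise that 5.6% of all tested genes reached. All 6 Tn tumours lay above all 6 WT tumours in 9 members (19.6%), namely Stat2, Dhx58, Adar, Mx1, Bst2, Trim30a, Ifi44, Ifi27 and Ifi35, against 8.81% of all tested genes. No member had all 6 Tn tumours below all 6 WT tumours, as 8.35% of all tested genes did, and in the other 37 members the groups overlapped. The ISRE letters were in the windows of 11 of the 30 members that rose (36.7%) and of 5 of the 16 others (31.2%). The median log2 fold change was 0.73 over the 16 members with the letters and 0.58 over the 30 without.

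**Figure D2:**
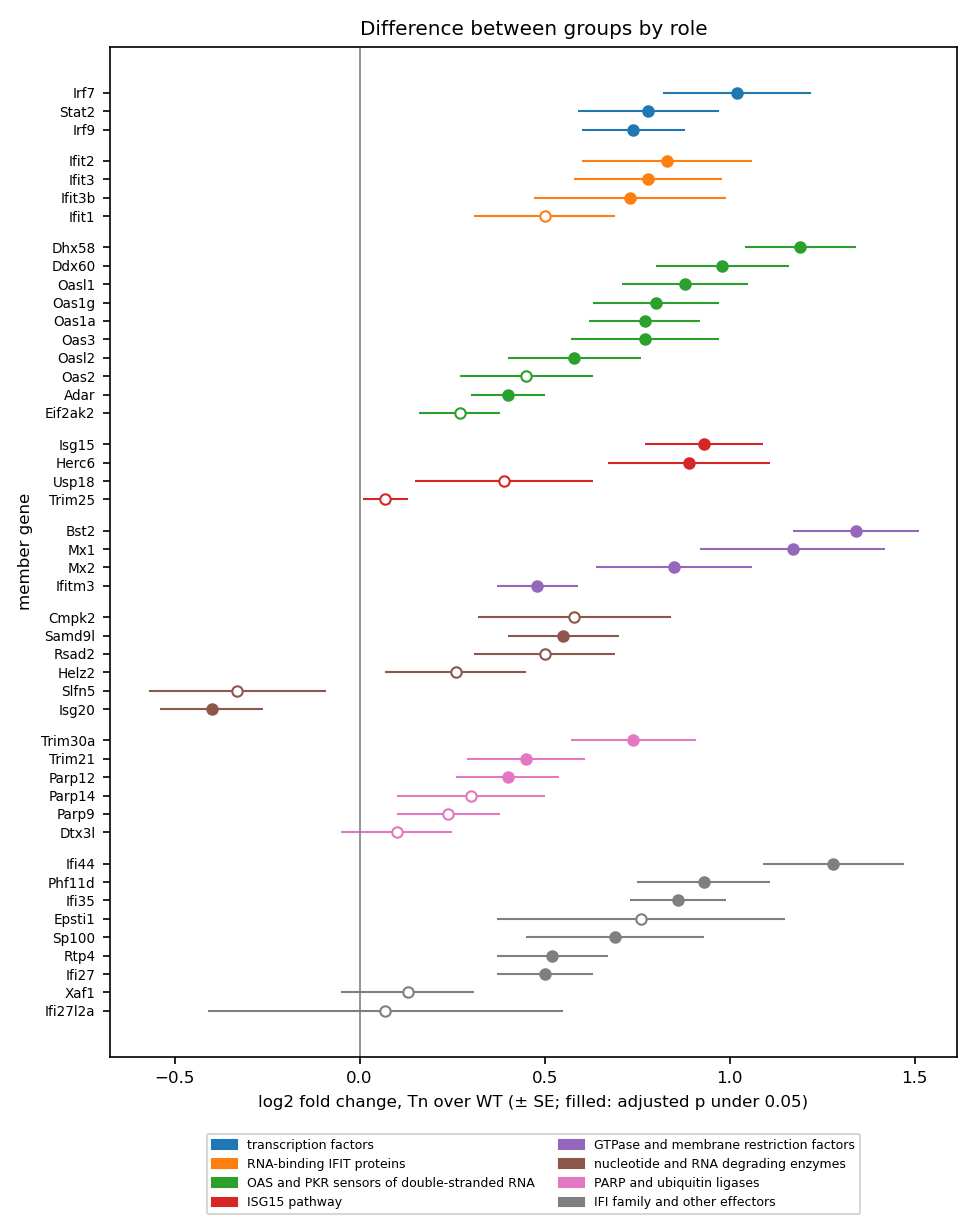
Log2 fold change, Tn over WT, of the 46 members with bars of 1 standard error, coloured by role. Filled points passed the edgeR test and hollow points did not; Bst2 is highest at 1.34 and Isg20 lowest at -0.40.

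All 3 transcription factors among the members rose. Stat2 and Irf9 are subunits of ISGF3, and Irf7 is the factor that drives interferon alpha genes. In CPM, which are counts divided by the TMM-scaled library total, Stat2 (ENSMUSG00000040033, chromosome 10, 128106428 to 128128718) ran from 43.4 to 114 in WT tumours with a median of 76.5, and from 116 to 154 in Tn tumours with a median of 136. The groups did not overlap, and WT tumour 6 was the lowest of all. The log2 fold change was 0.78 ± 0.19 (SE, n = 6 per group; edgeR adjusted p = 0.00694). Irf9 ran from 46 to 78 CPM in WT (median 66.8) and from 77 to 122 CPM in Tn tumours (median 113). Tn tumour 6, at 77 CPM, was the only Tn tumour within the WT range. Irf9 thus rose by 0.74 ± 0.14 on the log2 scale (edgeR adjusted p = 0.0017). Irf7 rose by 1.02 ± 0.20 on the same scale (edgeR adjusted p = 0.00216), from a WT mean of 40.4 CPM to a Tn mean of 81.9 CPM. Per kilobase of exon the levels of the 3 were alike over the 12 tumours, at 18.3 (Stat2), 16.2 (Irf7) and 16.1 CPM (Irf9).

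The IFIT proteins bind viral RNA ends and block their translation. The 4 IFIT members lie on the plus strand of chromosome 19, in the order Ifit2, Ifit3, Ifit3b and Ifit1, with starts 24429 to 32943 bases apart. Their relatives Ifit1bl1 and Ifit1bl2 lie among them on the minus strand. Of the 4 members, 3 rose and Ifit1 did not pass the test. Ifit3 ran from 6.69 to 11.6 CPM in WT (median 7.99) and from 10.1 to 21.6 CPM in Tn tumours (median 13.1), with overlapping groups and a log2 fold change of 0.78 ± 0.20 (edgeR adjusted p = 0.00923). Ifit1 held 17, 12.3, 14.2, 21.4, 20.8 and 12.7 CPM in WT tumours 1 to 6 and 22.9, 27.1, 20.8, 33.3, 20 and 15.4 CPM in Tn tumours 1 to 6. WT tumours 1, 4 and 5 lay within the Tn range, and Tn tumour 6 was the only Tn tumour below 20 CPM. The log2 fold change of Ifit1 was 0.50 ± 0.19 (edgeR adjusted p = 0.0598), and with each tumour left out in turn it passed in 3 of 12 fits, those without WT tumour 4 (adjusted p = 0.0411), WT tumour 5 (0.0461) or Tn tumour 6 (0.0249). Ifit2 rose by 0.83 (edgeR adjusted p = 0.0139). Ifit3b rose by 0.73 (edgeR adjusted p = 0.045), a call kept in 4 of 12 fits with a tumour left out, where the adjusted p ran from 0.0142 to 0.0927. Ifit3 and Ifit3b are close paralogs, and how their reads were split between them is uncertain.

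Proteins that bind or sense double-stranded RNA made up the role group with the most members, and 8 of 10 rose. OAS enzymes make short oligoadenylates that activate RNase L. Oas1a ran from 21.8 to 38.2 CPM in WT (median 24.1) and from 34.1 to 56.5 CPM in Tn tumours (median 42.9). WT tumour 5, at 38.2 CPM, was the only WT tumour in the Tn range. Oas1a rose by 0.77 ± 0.15 on the log2 scale (edgeR adjusted p = 0.00234). Dhx58 encodes LGP2, a relative of the cytoplasmic RNA sensor RIG-I. Its 6 WT tumours held 16.9, 11.7, 14.3, 13.9, 23.5 and 13.8 CPM and its 6 Tn tumours held 34.2, 40.8, 31, 37.4, 31.3 and 40 CPM. The groups lay apart, with WT tumour 5 the highest of WT. Dhx58 rose by 1.19 ± 0.15 (log2 scale; edgeR adjusted p = 0.000167). Among the others that rose, the log2 fold change was 0.98 for Ddx60, a helicase, 0.88 for Oasl1, 0.80 for Oas1g, 0.77 for Oas3, 0.58 for Oasl2 and 0.40 for Adar, which edits adenosines in double-stranded RNA. Oasl2 lost its call without WT tumour 2, Tn tumour 2 or Tn tumour 4, at an adjusted p of up to 0.0556.

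The other 2 of this role group did not pass. Oas2 ran from 5.41 to 11.7 CPM in WT (median 6.87) and from 8.69 to 12.8 CPM in Tn tumours (median 9.72), with overlap and a log2 fold change of 0.45 (edgeR adjusted p = 0.0614). With only WT tumour 5 left out it was 0.63 (adjusted p = 0.00443). Eif2ak2, the kinase PKR that halts translation, ran from 57.9 to 83.8 CPM in WT (median 69.5) and from 71.6 to 97 CPM in Tn tumours (median 85.8). The Eif2ak2 groups overlapped, at a log2 fold change of 0.27 (edgeR adjusted p = 0.0592), which passed in 3 of 12 fits with a tumour left out: WT tumour 1 (adjusted p = 0.0251), Tn tumour 1 (0.0389) and Tn tumour 5 (0.0368). Oas2, Oas3, Oas1g and Oas1a lie in this order on the minus strand of chromosome 5, with the related Oas1c, Oas1b and Oas1h between Oas3 and Oas1g. The close similarity of OAS genes makes the division of reads among them uncertain.

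The ISG15 group divided into 2 genes that rose and 2 that did not pass. ISG15 is a small protein that is attached to other proteins as ubiquitin is. Isg15 (ENSMUSG00000035692, chromosome 4, 156283912 to 156285253) held 21.1, 19.3, 20.8, 25.5, 34.1 and 23 CPM in WT tumours 1 to 6 and 39.6, 50.6, 43.1, 57.6, 48.9 and 33.7 CPM in Tn tumours 1 to 6. WT tumour 5 at 34.1 CPM stood just above Tn tumour 6 at 33.7 CPM, and otherwise the groups were apart. Isg15 rose by 0.93 ± 0.16 (log2 scale; edgeR adjusted p = 0.000847). Herc6, the main ligase for ISG15 in mice, rose by 0.89 (edgeR adjusted p = 0.00741). Usp18 removes ISG15 and dampens the type I receptor; it ran from 12 to 30.3 CPM in WT (median 23.3) and from 19.5 to 41 CPM in Tn tumours (median 30.8). The Usp18 groups overlapped widely, at a log2 fold change of 0.39 ± 0.24 (edgeR adjusted p = 0.22), although its window holds 2 ISRE matches. Trim25, a ubiquitin ligase of the RIG-I pathway, ran from 138 to 164 CPM in WT (median 159) and from 151 to 182 CPM in Tn tumours (median 164), a log2 fold change of 0.07 ± 0.06 (edgeR adjusted p = 0.404). Of all members Trim25 was thus among those closest to equal between the groups, with a small spread.

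**Figure D3:**
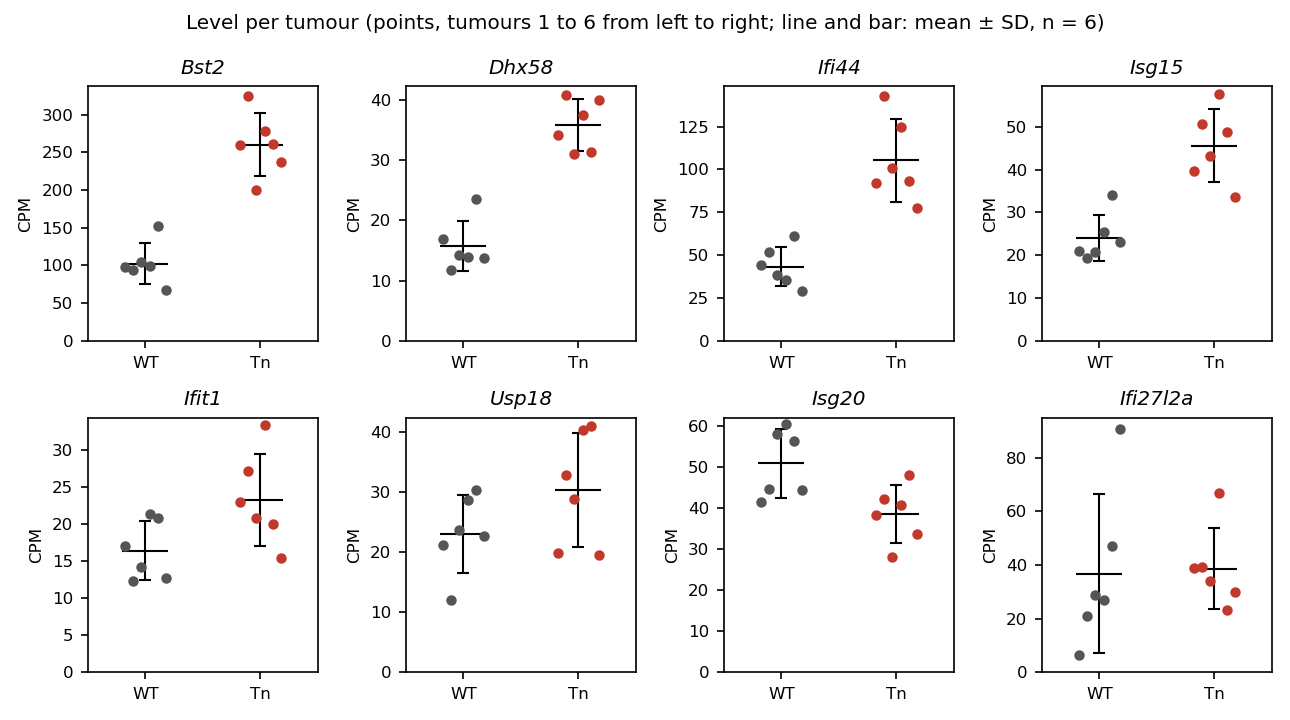
CPM of selected members in each tumour, WT in grey and Tn in red, with a line at each group's mean and a bar of 1 SD to each side (n = 6). Bst2 and Dhx58 have separate groups, Isg15 has 1 WT tumour at the lower edge of the Tn range, and Isg20 is the member lower in Tn tumours.

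Restriction factors of the GTPase and membrane kind all rose, 4 of 4. Bst2, or tetherin, holds budding virus at the cell surface, and it had the highest log2 fold change of the 46. Bst2 (ENSMUSG00000046718, chromosome 8, 71986899 to 71990100) held 97.8, 94.6, 104, 99.4, 152 and 67.6 CPM in WT tumours 1 to 6 and 260, 325, 200, 278, 261 and 237 CPM in Tn tumours 1 to 6. The lowest Tn tumour, 3, was above the highest WT tumour, 5. Tn over WT, the log2 fold change of Bst2 was 1.34 ± 0.17 (edgeR adjusted p = 0.00014). Ifitm3, which hinders fusion of virus with the endosome, had the highest level of the members, 756 CPM per kilobase of exon over the 12 tumours, ahead of Bst2 at 201, Ifi27 at 83.5, Ifi27l2a at 81.5 and Isg15 at 49.5 CPM per kilobase. In CPM Ifitm3 ran from 344 to 515 in WT (median 435) and from 489 to 684 in Tn tumours (median 614). The overlap was slight and the log2 fold change 0.48 ± 0.11 (edgeR adjusted p = 0.00608). Mx1 and Mx2 are dynamin-like GTPases that many laboratory mouse strains carry in defective form. Mx1 rose by 1.17 (edgeR adjusted p = 0.00326), without overlap, and Mx2 by 0.85 (edgeR adjusted p = 0.00668), and they were the members with the lowest levels, at 1.12 and 1.14 CPM per kilobase.

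Nucleotide and RNA enzymes did not share a direction: Samd9l rose, Isg20 fell and 4 of 6 did not pass. Samd9l, a cytoplasmic restrictor of translation, ran from 31.8 to 53 CPM in WT (median 46.2) and from 49.9 to 93.8 CPM in Tn tumours (median 60.8), with overlap. Samd9l rose by 0.55 ± 0.15 (log2 scale; edgeR adjusted p = 0.0145). Isg20 (ENSMUSG00000039236, chromosome 7, 78563172 to 78570144), an exonuclease that degrades single-stranded RNA, held 41.4, 44.6, 58, 60.4, 56.3 and 44.3 CPM in WT tumours 1 to 6 and 38.4, 42.3, 28, 40.8, 48.1 and 33.6 CPM in Tn tumours 1 to 6. Tn tumours 2 and 5 lay within the WT range, and the other 4 lay below it. Isg20 had a log2 fold change of -0.40 ± 0.14 (edgeR adjusted p = 0.0361). That call was kept in 4 of 12 fits with a tumour left out and lost without WT tumour 3, 4 or 5 or Tn tumour 1, 2, 3, 4 or 6, with an adjusted p from 0.0185 to 0.081 over the 12 fits. In each of the 12 fits the direction was lower in Tn, from -0.47 to -0.32.

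Of the 4 enzymes and helicases that did not pass, Rsad2 and Cmpk2 are divergent neighbours with starts 12752 bases apart on chromosome 12. Rsad2, or viperin, makes a chain-terminating nucleotide, and Cmpk2 is a kinase that supplies its substrate. Rsad2 ran from 6.72 to 13.1 CPM in WT (median 9.11) and from 9.53 to 16.9 CPM in Tn tumours (median 13.4), a log2 fold change of 0.50 (edgeR adjusted p = 0.0604), and it passed without WT tumour 4 (adjusted p = 0.0288), Tn tumour 1 (0.0397) or Tn tumour 6 (0.0338). Cmpk2 ran from 7.03 to 18 CPM in WT (median 11.1) and from 10.3 to 27.6 CPM in Tn tumours (median 17.5), a log2 fold change of 0.58 (edgeR adjusted p = 0.0977), and it passed without WT tumour 4 (adjusted p = 0.0442). In both the groups overlapped. Slfn5, of the Schlafen family, ran from 23.1 to 54.2 CPM in WT (median 40.9) and from 20.8 to 48.6 CPM in Tn tumours (median 29.3), a log2 fold change of -0.33 ± 0.24 (edgeR adjusted p = 0.293). Helz2, a helicase, ran from 41.5 to 64.9 CPM in WT (median 52.3) and from 50.6 to 106 CPM in Tn tumours (median 55.5), where Tn tumour 4 alone stood above 57.3 CPM. For Helz2 the log2 fold change was 0.26 (edgeR adjusted p = 0.302), and 0.05 without Tn tumour 4.

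In the group of ADP-ribosyl transferases and ubiquitin ligases 3 of 6 rose. Trim30a, a mouse TRIM protein that restrains NF-kB signalling, ran from 28.4 to 58.7 CPM in WT (median 41.4) and from 60.3 to 85 CPM in Tn tumours (median 70.4), without overlap. Trim30a rose by 0.74 ± 0.17 (log2 scale; edgeR adjusted p = 0.00598). Trim21, a cytoplasmic antibody receptor, rose by 0.45 (edgeR adjusted p = 0.0464), and Parp12 by 0.40 (edgeR adjusted p = 0.0428). Each of these calls was kept in 4 of 12 fits with a tumour left out, where the adjusted p reached 0.0876 for Trim21 and 0.0891 for Parp12. Parp9 and Dtx3l act as a pair, and their genes lie on opposite strands of chromosome 16 with starts 681 bases apart. Each start lies inside the other gene, and Parp14 is nearby. Counting was without strand, so how reads of the shared stretch were assigned is uncertain. None of Parp9, Dtx3l and Parp14 passed. Parp9 ran from 83 to 150 CPM in WT (median 118) and from 118 to 167 CPM in Tn tumours (median 133), Dtx3l from 92.1 to 165 (median 128) and from 108 to 174 CPM (median 139), and Parp14 from 81.3 to 199 (median 142) and from 141 to 237 CPM (median 175). Their groups overlapped broadly, and the log2 fold changes were 0.24 (edgeR adjusted p = 0.188), 0.10 (0.643) and 0.30 (0.248).

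Among the IFI genes and other effectors 6 of 9 rose. Ifi35, a partner of the N-Myc interactor, ran from 22 to 33.8 CPM in WT (median 27.5) and from 37 to 56.5 CPM in Tn tumours (median 50.3). The groups lay apart, at a log2 fold change of 0.86 ± 0.13 (edgeR adjusted p = 0.000376). Ifi44 also had separate groups and rose by 1.28 ± 0.19 (edgeR adjusted p = 0.000423), from a WT mean of 43.4 CPM to a Tn mean of 105 CPM. Phf11d rose by 0.93, Sp100, a scaffold of nuclear bodies, by 0.69 and Rtp4, a receptor chaperone, by 0.52. Sp100 kept its call in 4 of 12 fits with a tumour left out, with an adjusted p up to 0.0721.

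Ifi27 and Ifi27l2a, related genes with starts 9533 bases apart on chromosome 12, differed in their values. Ifi27 held 87, 68.4, 105, 98.2, 119 and 131 CPM in WT tumours 1 to 6 and 144, 135, 160, 137, 143 and 142 CPM in Tn tumours 1 to 6. Every Tn tumour was above every WT tumour, and the log2 fold change was 0.50 ± 0.13 (edgeR adjusted p = 0.00992). Ifi27l2a held 6.33, 21, 28.7, 26.8, 47.1 and 90.7 CPM in WT tumours 1 to 6 and 38.9, 39.1, 34.2, 66.7, 23.1 and 30.1 CPM in Tn tumours 1 to 6. WT tumour 1 was the lowest and WT tumour 6 the highest of all 12, so the Tn group fell inside the WT range. Ifi27l2a had a log2 fold change of 0.07 ± 0.48 (edgeR adjusted p = 0.919); it was 0.57 without WT tumour 6, and it turned to -0.13 without WT tumour 1 and to -0.14 without Tn tumour 4. The other members without a call were Xaf1, a partner of the apoptosis inhibitor XIAP, and Epsti1. Xaf1 ran from 18.3 to 44.3 CPM in WT (median 32.6) and from 29 to 40.1 CPM in Tn tumours (median 33.4), a log2 fold change of 0.13 (edgeR adjusted p = 0.593). Epsti1 ran from 8.66 to 23 CPM in WT (median 17.3) and from 8.86 to 58.1 CPM in Tn tumours (median 23.2), with Tn tumour 4 the highest, and the change of Epsti1 was 0.76 ± 0.39 on the log2 scale (edgeR adjusted p = 0.149).

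**Figure D4:**
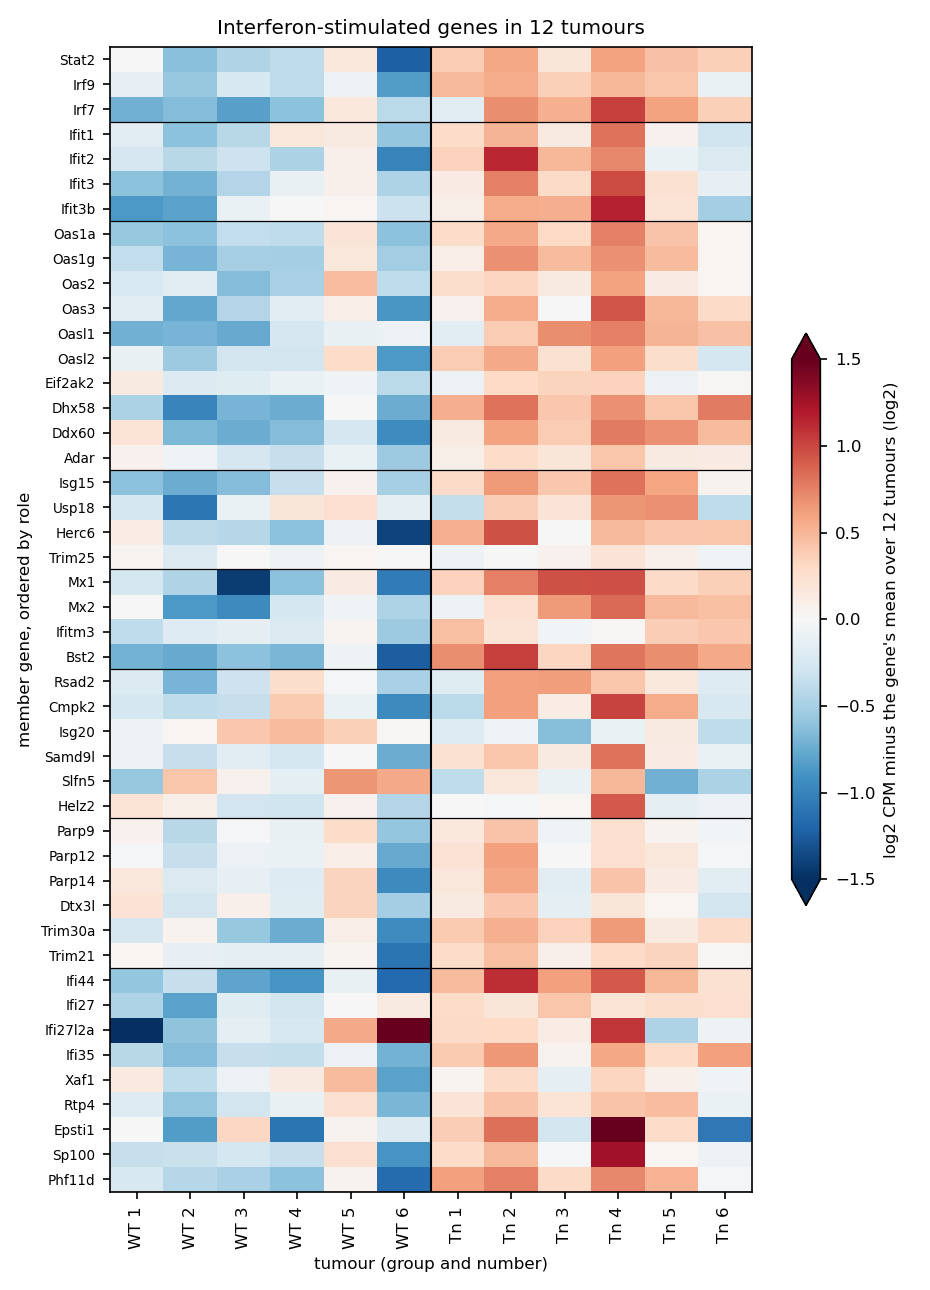
Log2 CPM of the 46 members in the 12 tumours, each gene centred on its mean over all tumours, in role groups. Tn tumours 2 and 4 are high over most genes, WT tumour 6 is low over most, and WT tumour 5 stands out within its group.

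Within each group, most members were high in the same tumours and low in the same tumours. As a level per tumour, the mean log2 CPM of the 46 members was 4.96, 4.75, 4.88, 4.94, 5.34 and 4.64 in WT tumours 1 to 6 and 5.41, 5.74, 5.44, 5.88, 5.48 and 5.25 in Tn tumours 1 to 6. The group means were 4.92 ± 0.24 and 5.53 ± 0.23 (SD, n = 6 each), a difference of 0.61 given as a description. The groups overlapped by 1 tumour on each side, since WT tumour 5 was above Tn tumour 6. Tn tumour 4 had the highest CPM of all 12 tumours in 24 members and Tn tumour 2 in 13, while WT tumour 6 was lowest in 26 and WT tumour 2 in 10. Within WT, tumour 5 was highest in 31 of 46 members, and within Tn, tumour 6 was lowest in 22. With the group mean taken out, the median Pearson correlation between 2 members was 0.52 over 1035 pairs and 12 tumours, and 90.1% of pairs were above 0. Over 19255 pairs of tested genes taken at a fixed spacing the median was 0.00, with 50.4% above 0. The median over member pairs was 0.53 in the 6 WT tumours and 0.58 in the 6 Tn tumours, and 0.42 without WT tumour 5. All pairs share the same 12 libraries, and these correlations are a description.

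Members that passed no test between the groups still moved with the others within them. The correlation of a member with the mean of the other 45 was highest in Oasl2 (0.93), Oas1a (0.91) and Rtp4 (0.90), and it was 0.88 in Xaf1, 0.87 in Parp9 and Parp14, 0.84 in Dtx3l and 0.85 in Ifit1, none of which was called. The lowest values were those of Ifi27 (-0.02), Ifi27l2a (-0.01), Ifitm3 (0.11), Oasl1 (0.23), Slfn5 (0.31) and Isg20 (0.42). Most of these low values were higher without WT tumour 6, and values without another tumour are not given for this measure. Without WT tumour 6 the correlation was 0.34 for Ifi27, 0.40 for Ifi27l2a, 0.48 for Oasl1 and 0.54 for Slfn5. Isg20 was then at 0.37, and Ifitm3, at -0.15, was the lowest of the 46. Outside the members, the 5 tested genes most like their mean by this measure over the 12 tumours were Gm48194 (0.90), Rab19 (0.89), Tlr3 (0.88), Gal3st2b (0.87) and Nat2 (0.86). Of these Rab19 rose by 1.36 ± 0.21 (edgeR adjusted p = 0.000587), and the log2 fold changes of the others lay between -0.29 and 0.31 without passing. These 5 were picked as the highest among all tested genes outside the members. How high a correlation unrelated genes would reach over 12 tumours was not tested, so a link to the members cannot be read from these values. Gm48194 and Gal3st2b also had low levels, with WT means of 0.781 and 0.184 CPM and Tn means of 0.638 and 0.227 CPM.

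The type I and type III ligands were close to absent from the counts. Of 18 type I interferon genes, 13 had no count in any tumour, and the 18 together had 41 counts in the WT tumours and 67 in the Tn tumours, from 0 to 20 per tumour. Ifnb1, interferon beta, had 7 counts, all in WT tumour 1, against 16 in 4 Tn tumours, Ifne had 16 and 16, Ifnk 10 and 35, Ifna4 6 and 0, and Ifna5 2 and 0. Most low counts in the table were even, so a read pair may add 2 counts, and a difference of these ligands was not detectable at this depth. The type III genes Ifnl2 and Ifnl3 had no count in any tumour. A count of 0 allows up to 3 counts per tumour if counts are independent, and more where a read pair adds 2. Ifng, interferon gamma, had 56, 20, 47, 49, 95 and 0 counts in WT tumours 1 to 6 and 528, 545, 109, 196, 140 and 178 in Tn tumours 1 to 6. Every Tn tumour was above every WT tumour, and the log2 fold change of Ifng was 2.54 ± 0.76 (edgeR adjusted p = 0.0202).

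Of the receptors and their kinases, 5 of 9 rose and 1 fell. The receptor chains Ifnlr1 (1.55, edgeR adjusted p = 0.00105), Ifngr2 (0.49, 0.00032), Ifnar2 (0.45, 0.0173) and Ifngr1 (0.42, 0.00154) and the kinase Tyk2 (0.34, 0.0474) rose, and the kinase Jak2 fell by 0.49 (edgeR adjusted p = 0.0483). Both kinase calls lay just under the threshold, with overlapping groups. Tyk2 ran from 26.4 to 42.5 CPM in WT and from 34.3 to 53 CPM in Tn tumours, and Jak2 from 148 to 351 and from 133 to 189 CPM. Ifnar1 at 0.08 and Jak1 at 0.15 did not pass. Of the interferon regulatory factors outside the members, Irf8, Irf5, Irf2 and Irf1 rose by 1.04, 1.03, 0.71 and 0.67, and Irf3, which starts interferon beta transcription, was at 0.17 and did not pass. The feedback inhibitor Socs1 rose by 1.43 (edgeR adjusted p = 0.00191), Socs3 by 0.40 and Ptpn2 by 0.39, and Pias1 did not pass. Both ISG15 conjugation enzymes beside the members rose, Uba7 by 0.53 and Ube2l6 by 1.26.

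Nucleic acid sensors and adaptors rose in 6 of 9 cases, namely Tlr9 (1.58), Tlr7 (1.05), Zbp1 (0.93), Ifih1 (0.48), Sting1 (0.41) and Rigi (0.32), while Cgas, Mavs and Tlr3 did not pass. Of 25 tested relatives of the members, 14 rose and none fell by the edgeR test, nor was any lower at an unadjusted p under 0.05 (0 of 25). The relatives with the highest log2 fold changes were Slfn1 (1.95), Phf11b (1.70), Phf11a (1.58), Trim30d (1.42) and Sp110 (1.16). Within families some genes rose and others were not called: beside Slfn5, which was not called, Slfn1, Slfn2 (1.01) and Slfn8 (0.66) rose and Slfn9 (-0.16) did not pass. Likewise Parp10 (0.74) and Parp11 (0.96) rose beside Parp9 and Parp14, which did not pass.

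Markers of several other cell types moved with the groups. All 10 T cell markers rose, and their summed level was 8.33 to 24.3 CPM in WT and 49.2 to 491 CPM in Tn tumours. All 4 leukocyte markers rose (281 to 484 against 385 to 1379 CPM), as did 7 of 9 macrophage markers (798 to 1248 against 1226 to 3750 CPM), 5 of 6 natural killer cell markers (6.66 to 12 against 7.84 to 41.6 CPM) and all 3 tested of 5 B cell markers (0.565 to 1.24 against 1.06 to 579 CPM, the top value being Tn tumour 4). Without Tn tumour 4 the summed level of the 5 B cell markers reached only 2.61 CPM in Tn tumours, so their rise rested largely on that tumour. Of 5 markers of plasmacytoid dendritic cells, which can make much type I interferon, 1 rose (0.922 to 3.02 against 1.73 to 26.9 CPM). That marker was Pacsin1, at 14 CPM in Tn tumour 4 and no higher than 1.07 CPM in any other, and without Tn tumour 4 the summed level of the 5 reached 7.04 CPM in Tn tumours. None of 6 neutrophil markers was called by the edgeR test or had an unadjusted p under 0.05 (30.9 to 115 against 29.1 to 175 CPM). Fibroblast markers fell in 6 of 7 cases, while Pdgfra rose by 1.03 (edgeR adjusted p = 0.00247), and their sum, mostly of Col1a1 and Col1a2, was 5491 to 13860 CPM in WT and 2358 to 3564 CPM in Tn tumours. Tumour epithelium markers, present in every tumour at 1872 to 3913 and 1750 to 3202 CPM, fell in 2 of 7. Endothelial markers fell in 3 of 4 cases (248 to 429 against 172 to 329 CPM), and none of 4 skeletal muscle and 3 tested keratinocyte markers was called, 0 of them also at an unadjusted p under 0.05. No marker was at 0 in all tumours. The share of counts from mitochondrial genes was 1.24% to 2.21% in WT and 0.826% to 1.54% in Tn tumours, with WT tumour 6, the lowest tumour in the members, at 2.21%. The part of the cell mixture and of the mitochondrial share in the rise of the members was not tested.

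**Figure D5:**
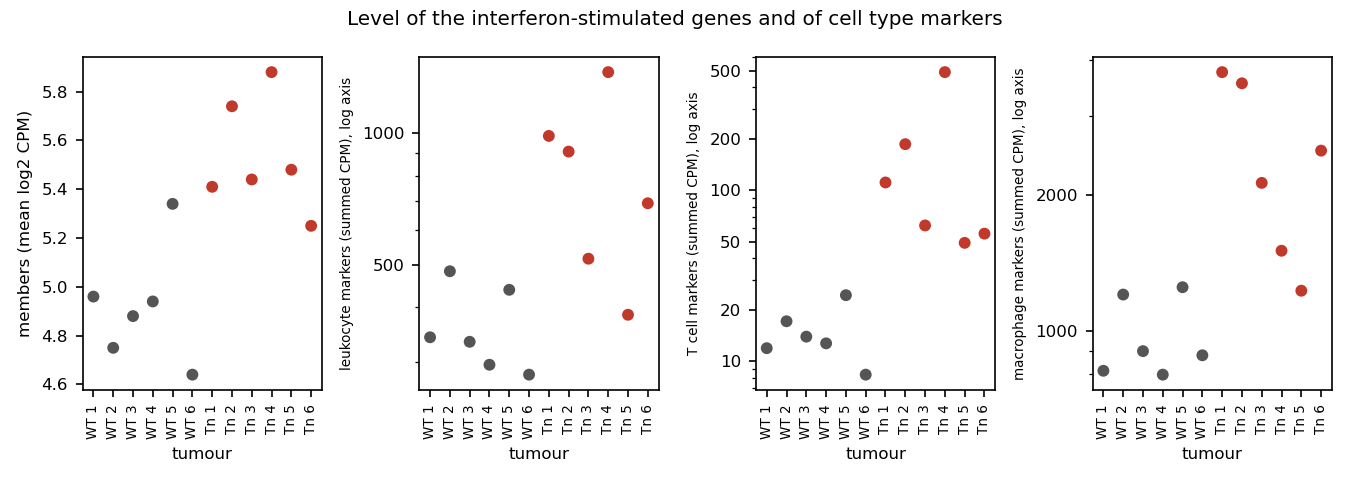
Mean log2 CPM of the 46 members and summed CPM of leukocyte, T cell and macrophage markers (log axes) in each tumour, WT in grey and Tn in red. Tn tumour 5 lies inside the WT range for leukocyte and macrophage markers and above all WT tumours for T cell markers and for the members.

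As a check of the labels, C1galt1c1 ran from 15.5 to 23 CPM in WT and from 10.8 to 12.9 CPM in Tn tumours, without overlap (log2 fold change -0.80 ± 0.11, edgeR adjusted p = 0.000201). Counts per tumour summed to between 113575859 and 156880766. Some libraries stood apart: WT tumour 6 and Tn tumour 4 were the lowest and highest in the members, Tn tumour 4 was also highest in T and B cell markers, and Tn tumour 6 was highest in summed keratinocyte markers (3110 CPM, against 16.3 to 826 CPM in the others). Tn tumour 6 was also the lowest Tn tumour in the members, at a level of 5.25, so the choice of these 3 was not independent of the members' values. Without these 3, 28 of the 30 members that rose still did, Parp12 (edgeR adjusted p = 0.0505) and Sp100 (0.0577) being lost. The median log2 fold change of the members was then 0.56. The tumours of a group are called biological replicates in the labels, and the labels name 1 batch. All 6 Tn libraries have lower numbers in their names than the 6 WT libraries, and an effect of that order cannot be told apart from the group.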

How the data were processed

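Poly(A) RNA of 12 tumours, 6 per group, was sequenced from stranded libraries. Per the submitters' processing notes, trimming used fastp 0.23, alignment to the GRCm39 genome used STAR 2.7.11a, and counting used featureCounts (Subread 2.1.1). The authors deposited raw counts per gene of Ensembl 112, without strand per the file headers, so reads of antisense genes that overlap a member are mixed with its own. From 66.4% to 72.5% of low counts were even. The deposited exon length, in bases, gave CPM per kilobase. Of 57186 identifiers, 56630 matched a symbol in GENCODE M39, whose canonical starts can differ from the outer ends of the counted genes. In some members the difference was large. On the plus strand, the Rtp4 window begins at 23428396 and its counted gene at 23339041, and the Adar window at 89637793 and its counted gene at 89622329. On the minus strand, the Ifitm3 window lies from 140591283 on, beyond its counted gene, which ends at 140590683. Motifs were searched only before the canonical start. Pairs of libraries in a group differed by more than sampling noise (chi-square per degree of freedom at least 37.4).

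Counts were fitted over all 19255 genes passing filterByExpr with edgeR 4.0.16 (R 4.3.3; TMM, robust quasi-likelihood, two-sided p, Benjamini-Hochberg, threshold 0.05). Standard errors were taken from the fold change and its F statistic. The biological coefficient of variation was 0.358. Log2 CPM used a prior count of 2. The members, role groups, pathway and marker lists were chosen with earlier results of these data known, so no list test was made. Values are given in full for the member of each role group with the smallest p or highest level per kilobase and for each member not called or lower. Irf7, Ifit2, Ifi44 and others are named with fewer values. In counts simulated for this comparison, 200 of 19003 genes were changed. Among these, 1.5-fold changes were called for 32% of genes, 2-fold changes for 70% and 4-fold changes for 94%, and 4 calls were false. In the tumours 36.8% of tested genes were called, which makes the Benjamini-Hochberg cutoff on the unadjusted p looser than in the simulation. The simulated shares therefore do not measure the chance of detection in the tumours. As alternatives, scaling by upper quartile or RLE, voom with quality weights in limma 3.58.1, DESeq2 1.42.0, no filter, a mean CPM of 1, a prior count of 0.5, a median over members, the replicate number as block, each tumour left out, and 3 libraries left out were tried. The result of 1 gene of the pathway lists is not reported here.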

Additional observations from a re-analysis of the deposited data

Results flagged for a closer look

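In 94 groups of 6 tumours (46 members and the level over them, in each group), the highest or lowest tumour was set against the rest, and in 5 it lay far from the others by Dixon's criterion. Chance flags about 1 in 20 such groups. Helz2 stood at a log2 CPM of 6.73 (107 CPM) in Tn tumour 4, and Oas1a at 5.26 (38.2 CPM) in WT tumour 5, both above their groups. Trim21 was at 3.85 (14.5 CPM) in WT tumour 6 and Irf9 at 6.27 (77 CPM) in Tn tumour 6, both below their groups. Ifi27 was at 7.32 (160 CPM) in Tn tumour 3, above its group. These CPM include the prior count.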

How the results depend on the processing

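The number of members that rose stayed between 25 and 32 over every alternative, against 30; it was 26 with upper-quartile scaling or no filter, 27 at a mean CPM of 1, 29 with RLE scaling, 30 with limma voom, 32 with DESeq2, and 25 to 32 with each tumour left out (25 without WT tumour 2, Tn tumour 2 or Tn tumour 4). Of the 30, 25 rose in all 12 of those fits. The median log2 fold change of the members ran from 0.53 to 0.76. The number of members that fell was 0 with no filter, with the replicate block and without the 3 libraries that stood apart, and 0 to 1 with each tumour left out; by edgeR's unadjusted p under 0.05 it was 1 in each of these, and it was 1 by DESeq2 and limma. The log2 fold change of Ifi27l2a, 0.07, turned to -0.13 without WT tumour 1, -0.03 without WT tumour 2, -0.00 without WT tumour 4 and -0.14 without Tn tumour 4; its highest value with a tumour left out was 0.57, without WT tumour 6. The median correlation between members was 0.42 to 0.55 with each tumour left out, the lowest without WT tumour 5. The cause was not tested. The replicate numbers did not pair the tumours (correlations of same-numbered deviations -0.12 to 0.16, and no WT tumour correlated best with its own number); with the replicate block 30 members rose, 28 of them shared, and Ifit1 and Cmpk2 passed. The chance to detect a 1.5-fold change in these tumours was not measured, since the simulation changed only 200 genes. Members without a call may still differ.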
